A study of Mus musculus with 8 samples.

Results

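The genes described here take part in the recognition, adhesion and fusion of myoblasts. They are 9 genes chosen by name: Tmem8c, Cdh15, Cdh2, Ncam1, Kirrel, Nphs1, Cd9, Cd81 and Adam12. Every probe that the array design names after one of them was taken, which gave 19 of the 56605 probes that are not controls, for 9 of the 36693 gene names on the array. Each probe was compared between C2C12 cells in which the long non-coding RNA Pvt1 was silenced and cells given a negative control.

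C2C12 is a mouse myoblast line that proliferates in rich medium and can be induced to form multinucleated myotubes. All 8 cultures were proliferating cells at passage 10 of this one line, and all were transfected with Lipofectamine 2000. The 4 Pvt1-silenced cultures received antisense LNA GapmeRs against Pvt1, which are short modified DNA oligonucleotides that direct RNase H to cut the matching RNA, and the 4 control cultures received Negative Control GapmeRs. The labels do not say which Pvt1 GapmeR each culture received. RNA of each culture was labelled with Cy3 and hybridised to one Agilent single-colour array, so the values are levels in proliferating cells and no fused culture was measured. The replicates are called biological in the labels, without saying what separated the cultures. In bulk RNA, fewer cells of a type and less RNA per cell cannot be told apart.

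The 2 GapmeR sequences against Pvt1 are shown because they define the treatment. The reverse complement of neither was found whole in any of the 19 probes, and the longest stretch shared with one was 7 bases for Pvt1_1 and 8 bases for Pvt1_3. This concerns the probe sequences and not the whole transcripts.
Pvt1_1: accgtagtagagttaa
Pvt1_3: agtcaacgcttcacat

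Fusion of muscle cells proceeds in steps. Myoblasts leave the cell cycle and recognise each other through cadherins and immunoglobulin-type adhesion molecules. Actin is then remodelled at the contact by Rac and its activators, and the membranes merge under the action of the muscle proteins myomaker and myomixer. Tetraspanins organise membrane proteins into domains and modulate fusion, and ADAM12 is a transmembrane disintegrin and metalloprotease of fusing muscle cells. Tmem8c is the older symbol of the myomaker gene, now Mymk.

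Values are log2 of the processed signal after quantile normalisation between arrays, and a change is the mean of the silenced arrays minus the mean of the control arrays. A probe was tested when at least 3 of 4 arrays in each group gave a positive and significant signal, and it was called at a limma adjusted p under 0.05 over all 28649 tested probes. Pvt1 itself was checked first. On its brightest probe (A_55_P2051254) the control arrays read 9.65, 9.79, 10.31 and 9.70 and the silenced arrays 7.09, 6.69, 7.85 and 6.39. The change was -2.86 ± 0.32 (SE, limma adjusted p = 0.000682), which left 13.8% of the control signal.

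Some facts of the whole set touch the results. Between 51.6% and 62.5% of spots were positive and significant on each array, and the lowest share was that of silenced replicate 4. Control replicate 3 correlated least with its own group (mean r = 0.960, against 0.980 to 0.986 for the other 7 arrays). Across all tested probes the median change was -0.19, so changes below are also given relative to it where that matters. Without silenced replicate 4 this median was -0.033, so the relative values rest on that array. In 1071 genes with probes 300 to 1000 bases apart, the probe nearer the 5′ end read lower than the one nearer the 3′ end by 0.85 ± 0.16 in control arrays and by 1.62 ± 0.20 in silenced arrays (SD, n = 4 each), and in 82.8% of these genes the 5′ probe fell more. Its part in the results below was not tested.

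The cell type was checked against marker lists. Of 14 myoblast genes, 12 were well above background on all control and all silenced arrays, and Myf5 was on none. None of 5 endothelial genes was well above background on any array, and the same held for 3 of 5 epithelial genes (Cdh1, Epcam and Krt18). The epithelial gene Krt19 was well above background on all 8 arrays, and Krt8 on 3 silenced arrays and no control array. Of 10 liver genes none was well above background on all control arrays, while 5 (Ahsg, Alb, Fgb, Mup1 and Serpina1a) were on all silenced arrays and not on all control arrays. Apoa1, Apob, Cyp3a11 and Fga were well above background on no array. The summed signal of the liver list lay between 148 and 167 in the control cultures, against 3578 to 4632 after silencing, and its part in the results below was not tested.

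Of the 19 probes, 12 could be tested, covering 7 of the 9 genes. The 12 include only probes with signal in both groups, so they are not all of the members. Tmem8c, Cdh15 and one probe each of Cdh2 and Ncam1 fell after silencing, which is 4 of 12 tested probes (33.3%), beside 18.4% of all tested probes called lower. No probe of the 9 genes was called higher by limma, beside 4.79% of all tested probes. At an unadjusted p under 0.05, 1 of the 12 (the 3′ Cd81 probe) was higher by limma and by the methods' t-test. Of the 12, 9 had a change below 0, beside 61.5% of all tested probes. The median change of the 12 was -0.40, against -0.19 for all tested probes. In 5 of the 12 the control and silenced values did not overlap, beside 28.2% of all tested probes.

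**Figure D1:**
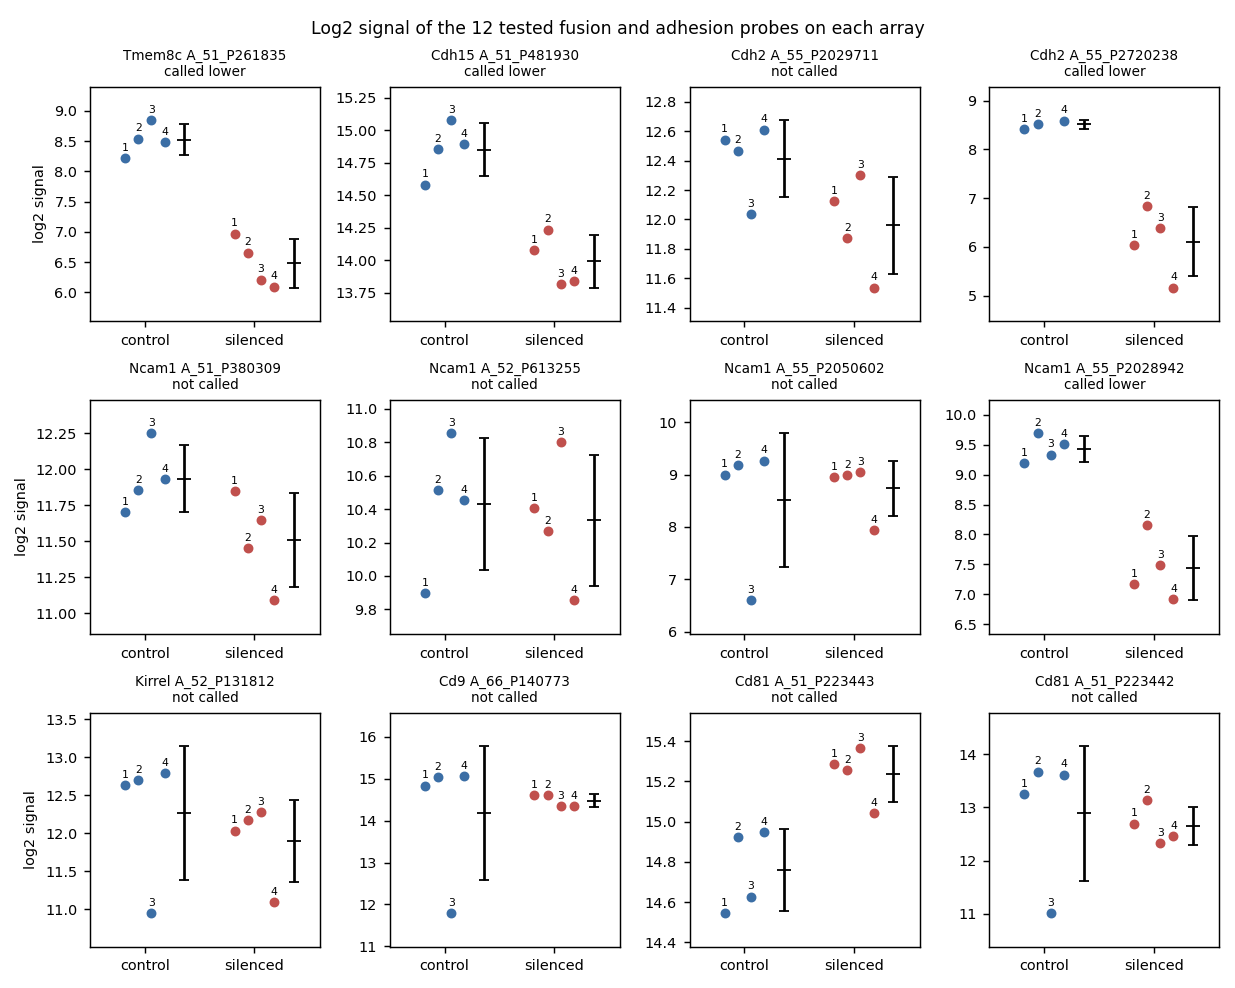
Normalised log2 signal of the 12 tested probes on each of the 8 arrays, with control arrays in blue and silenced arrays in red, numbered by replicate; the bars give mean and SD of each group, and each panel has its own vertical scale. In the 4 probes called lower no silenced array reaches the lowest control array, and control replicate 3 lies far below the other controls in Kirrel, Cd9, the 5′ probe of Cd81 and one Ncam1 probe.

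Tmem8c encodes myomaker, the muscle membrane protein that is required for myoblasts to fuse. Its single probe (A_51_P261835, mm9 chromosome 2, 26917594 to 26917653, minus strand) read 8.21, 8.54, 8.84 and 8.48 on the control arrays and 6.97, 6.66, 6.21 and 6.10 on the silenced arrays. Every silenced array lay more than 1 log2 unit below the lowest control array. Tmem8c fell by 2.04 ± 0.25 on the log2 scale (SE, limma adjusted p = 0.000953), which left 24.4% of the control signal. The exact two-sided permutation test over arrays gave p = 0.0286, the smallest that 4 against 4 arrays can give. All 4 control arrays but 2 of the 4 silenced arrays gave a signal well above background, so the low end is close to background. Within the slide row that held 3 controls and 1 silenced array the difference was -1.56, and within the other row it was -2.16.

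The classical cadherins join cells through calcium-dependent contacts between like molecules. Cdh15 encodes M-cadherin, the cadherin of muscle precursor cells. Its probe (A_51_P481930, mm9 chromosome 8, 125391031 to 125391090, plus strand) read 14.58, 14.86, 15.08 and 14.89 in controls and 14.08, 14.24, 13.81 and 13.84 in silenced cells. The groups did not overlap, but they lay closer than those of Tmem8c. Cdh15 fell by 0.86 ± 0.20 on the log2 scale (SE, limma adjusted p = 0.0141), to 55.0% of the level in controls. Relative to the median of all tested probes the change was -0.67. The call was lost with the slide row as a block (adjusted p = 0.0748), without control replicate 2 (adjusted p = 0.0507) and without control replicate 4 (adjusted p = 0.0553), at nearly the same size of change. Over all alternatives its adjusted p ran from 0.000157 to 0.0748.

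The 250 bases before the start of Cdh15 are shown because Cdh15 and the myogenic factor Myod1 were both called lower here and Myod1 is known to bind E-boxes, whose letters are CANNTG. Myod1 read 13.66, 13.57, 12.81 and 13.66 in controls and 11.67, 11.80, 11.26 and 11.16 after silencing (-1.95 ± 0.26, SE, limma adjusted p = 0.0013). RefSeq promoter windows matched 5 of the 9 genes (Kirrel, Cd9, Nphs1, Cd81 and Cdh15). The sequence lies on GRCm38.p6 chromosome 8 from 122848124 to 122848373, plus strand, a build other than that of the probe positions. Capitals mark each CANNTG, which reads the same on both strands.
Cdh15: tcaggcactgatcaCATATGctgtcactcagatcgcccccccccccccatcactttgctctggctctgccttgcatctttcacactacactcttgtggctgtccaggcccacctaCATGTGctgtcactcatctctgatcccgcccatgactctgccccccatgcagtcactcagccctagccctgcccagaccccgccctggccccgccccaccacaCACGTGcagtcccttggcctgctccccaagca

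This window holds 3 matches to CANNTG, 1 of them CACGTG, and no CAGCTG. The Cd9 window holds 3 and the Cd81 window 1, each with 1 CAGCTG among them, and the Kirrel and Nphs1 windows hold none. Among all 32851 windows of this length, 66.2% hold a CANNTG, 13% a CAGCTG and 6.02% a CACGTG, so a match is common and says nothing of binding.

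Cdh2 encodes N-cadherin, which is shared with neural and mesenchymal cells, and the gene lies on chromosome 18. It had 2 probes, which gave different results. The probe on transcript ENSMUST00000152779 (A_55_P2720238) read 8.42, 8.52 and 8.59 on control replicates 1, 2 and 4, and 6.04, 6.83, 6.38 and 5.16 on the silenced arrays. The spot of control replicate 3 was positive but carried an outlier flag and was left out, so the fit used 3 control values. With such spots kept the change was -2.19 (adjusted p = 0.00451). This probe fell by 2.41 ± 0.37 on the log2 scale (SE, limma adjusted p = 0.00303), and it was well above background on 2 of 4 silenced arrays.

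The other Cdh2 probe (A_55_P2029711), which lies 182347 bases further 3′ in the genome, read 12.54, 12.47, 12.03 and 12.61 in controls and 12.12, 11.87, 12.30 and 11.54 in silenced cells. These groups overlapped. Its change was -0.45 ± 0.23 (SE, limma adjusted p = 0.193) and did not pass the test. The difference between both probes, taken within each array, averaged -4.03 ± 0.089 over 3 control arrays and -5.85 ± 0.57 over the 4 silenced ones (SD), with an exact two-sided permutation p = 0.0571 where 0.0286 was the smallest possible.

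Ncam1 encodes the neural cell adhesion molecule, also known as CD56, an immunoglobulin-type protein of myoblasts and neurons. It had 5 probes, of which 4 were tested and 1 was called. The called probe (A_55_P2028942, mm9 chromosome 9, 49351182 to 49351241, minus strand) is the most 5′ of the 4 tested. It read 9.19, 9.69, 9.34 and 9.51 in controls and 7.17, 8.16, 7.48 and 6.92 in silenced cells, with no overlap. It fell by 2.00 ± 0.28 on the log2 scale (SE, limma adjusted p = 0.00161), to 25.0% of the level in controls. Its sequence is shown because it is the stretch of Ncam1 that fell.
Ncam1 A_55_P2028942: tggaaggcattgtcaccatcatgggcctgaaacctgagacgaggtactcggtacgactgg

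The 3 other tested Ncam1 probes were not called. The most 3′ of them (A_51_P380309) read 11.70, 11.85, 12.25 and 11.93 in controls and 11.85, 11.45, 11.65 and 11.09 in silenced cells, a change of -0.42 ± 0.23 (SE, limma adjusted p = 0.212). A_52_P613255 changed by -0.096 ± 0.27 (SE, limma adjusted p = 0.838) and A_55_P2050602 by 0.23 ± 0.57 (SE, limma adjusted p = 0.816). On the last of these control replicate 3 read 6.60 while the other controls lay more than 2 units higher, up to 9.27, and without it the change was -0.41. The probe on cDNA AK011905 (A_52_P668157) was positive on 4 control and 2 silenced arrays, well above background on none, and was not tested.

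Within each array the called Ncam1 probe was set against the most 3′ probe, 40862 bases away in the genome. The difference was -2.50 ± 0.31 in controls and -4.08 ± 0.58 in silenced cells (SD, n = 4 each), with an exact two-sided permutation p = 0.0286, the smallest possible. The signal along Ncam1 thus changed unequally, and with all tested Ncam1 probes averaged the change was -0.57 ± 0.24 (SE, limma adjusted p = 0.133). The 2 probes between them did not separate the groups. A_55_P2050602 and the called probe were designed on the same RefSeq transcript, and the other 2 tested probes on another. The tested probes are therefore not ordered positions on a single RNA. For A_55_P2050602 the difference from the most 3′ probe was -3.42 ± 1.49 in controls and -2.77 ± 0.31 in silenced cells (SD, n = 4 each), with an exact permutation p = 0.657. Without control replicate 3 this probe changed by -0.41 and the most 3′ probe by -0.32. For A_52_P613255 the difference from the most 3′ probe was -1.50 ± 0.21 and -1.18 ± 0.25 (SD, n = 4 each), with an exact permutation p = 0.0857. The shift toward lower 5′ signal in the silenced arrays was given above for 1071 genes with probes 300 to 1000 bases apart. Of the member pairs, only that of Cd81 (711 bases, described below) lies in this range. Its difference shifted the same way (-0.71, exact permutation p = 0.314), as did those of Cdh2 and of the most 5′ Ncam1 probe. Those of the other 2 Ncam1 probes shifted the opposite way, for A_55_P2050602 only with control replicate 3 included. The part of the shift in these differences was not tested.

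**Figure D2:**
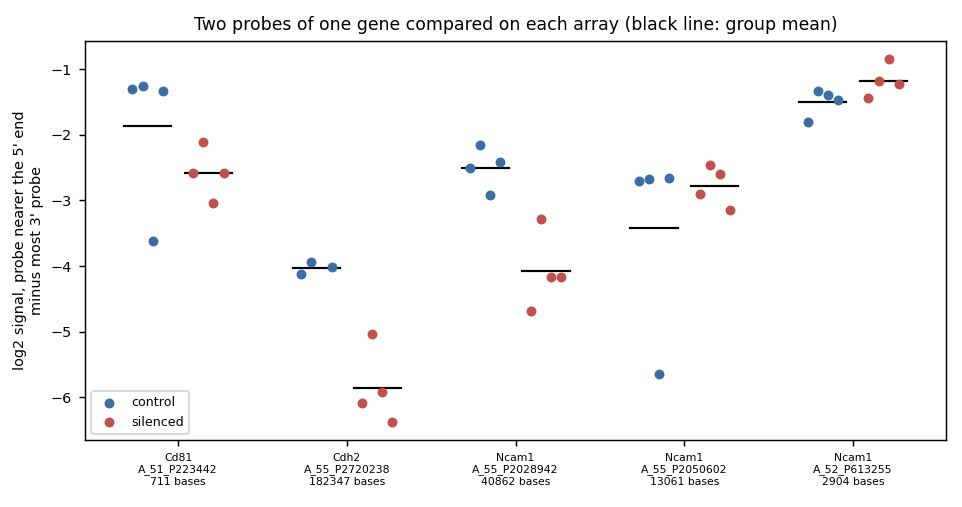
Log2 signal of a probe nearer the 5′ end minus that of the most 3′ tested probe of the same gene, on each array, with control arrays in blue, silenced arrays in red and the group mean as a black line; the number under each probe is its genomic distance from the 3′ probe. The groups are apart for Cdh2 (means -4.03 and -5.85) and for the most 5′ Ncam1 probe (means -2.50 and -4.08), while the other Ncam1 probes overlap between groups.

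Kirrel and Nphs1 encode the immunoglobulin-type partners Neph1 and nephrin, known from the slit diaphragm of the kidney and also implicated in myoblast recognition. One Kirrel probe was tested (A_52_P131812). It read 12.63, 12.70, 10.94 and 12.79 in controls and 12.03, 12.17, 12.28 and 11.10 in silenced cells. Control replicate 3 lay below every silenced array, and the groups overlapped through it. The change was -0.37 ± 0.44 (SE, limma adjusted p = 0.589). Without control replicate 3 it was -0.81 (adjusted p = 0.0785) and without silenced replicate 4 it was -0.10, neither of them called. The second Kirrel probe (A_52_P452569) was positive on 2 control arrays and no silenced array, and was not tested.

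Neither Nphs1 probe could be tested. A_51_P496741 was positive on no array, and A_55_P1996479 was positive on 3 control arrays and 1 silenced array and well above background on none. Nephrin mRNA was therefore at or near background in these cells on this array, and no change can be given. Of 10 kidney and podocyte genes, 5 were well above background on no array, among them Kap, Umod, Slc12a1 and Slc34a1. Synpo was well above background on all 8 arrays, Podxl on 3 control and 4 silenced arrays, and Aqp2 on 4 control arrays and 1 silenced array. Aqp2 was called lower (-0.998 ± 0.24, SE, limma adjusted p = 0.0153).

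Cd9 and Cd81 encode tetraspanins, small proteins that cross the membrane several times and bind integrins and immunoglobulin-type partners. The Cd9 probe (A_66_P140773) read 14.84, 15.04, 11.79 and 15.05 in controls and 14.60, 14.61, 14.35 and 14.34 in silenced cells. Control replicates 1, 2 and 4 lay above all silenced arrays and control replicate 3 lay far below them. The change was 0.30 ± 0.65 (SE, limma adjusted p = 0.786), and without control replicate 3 it was -0.50 (adjusted p = 0.0956), so its direction rests on that array. A second probe named Cd9 (A_51_P323341, on cDNA AK080546) lies on the opposite strand of the genome and was positive on no array.

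Cd81 had 2 tested probes. The more 3′ one (A_51_P223443, mm9 chromosome 7, 150253737 to 150253796, plus strand) read 14.54, 14.92, 14.63 and 14.95 in controls and 15.29, 15.26, 15.37 and 15.04 in silenced cells. All silenced arrays lay above all controls. The change was 0.48 ± 0.19 (SE, limma adjusted p = 0.104), or 0.67 relative to the median of all tested probes, and it did not pass the test, while the exact two-sided permutation p was 0.0286. It was called higher with 75th percentile scaling (0.68, adjusted p = 0.0222), cyclic loess (0.64, adjusted p = 0.00347), without the mask on dim spots (0.63, adjusted p = 0.00243) and without silenced replicate 4 (0.54, adjusted p = 0.0445). Over all alternatives its adjusted p ran from 0.002 to 0.315.

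The more 5′ Cd81 probe (A_51_P223442) spans a splice junction, since its 60 bases cover 444 bases of the genome. It lies on mm9 chromosome 7 from 150252642 to 150253085, plus strand, and is shown because its result differs from that of the 3′ probe.
Cd81 A_51_P223442: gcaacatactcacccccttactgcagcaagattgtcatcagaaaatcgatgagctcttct

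It read 13.25, 13.67, 11.01 and 13.62 in controls and 12.70, 13.14, 12.33 and 12.46 in silenced cells. Control replicate 3 again stood below all other arrays. The change was -0.23 ± 0.54 (SE, limma adjusted p = 0.801), and without control replicate 3 the probe was called lower (-0.86, adjusted p = 0.0369). The 2 Cd81 probes thus differed in sign, and the difference between them did not separate the groups, at -1.87 ± 1.16 in controls and -2.58 ± 0.38 in silenced cells (SD, n = 4 each, exact permutation p = 0.314).

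**Figure D3:**
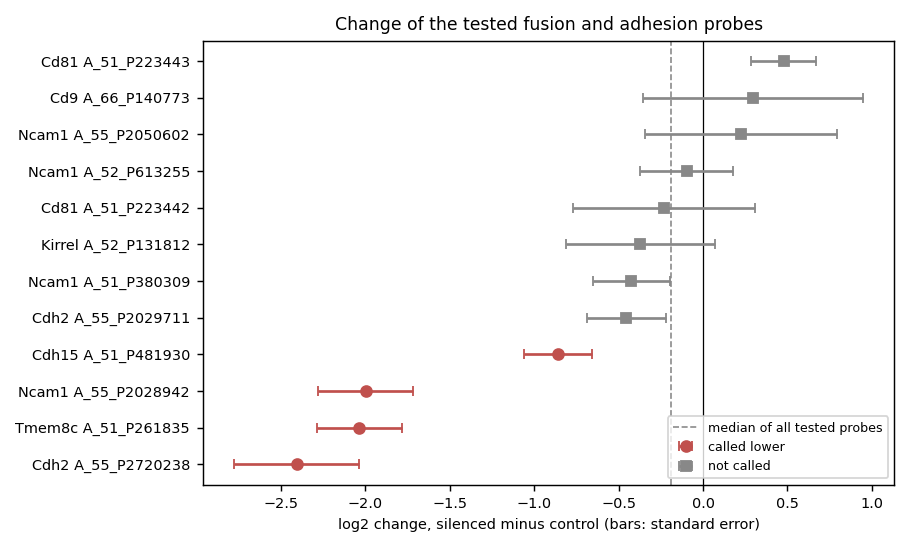
Log2 change of the 12 tested probes, silenced minus control, with standard errors; red circles are called lower and grey squares are not called, and the dashed line is the median of all tested probes at -0.19. Tmem8c and one probe each of Ncam1 and Cdh2 lie lowest, Cdh15 lies at -0.86, and the other 8 probes run from -0.45 to 0.48.

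Adam12 could not be tested over all 8 arrays because its silenced arrays gave too few positive signals. Probe A_55_P1958823 (mm9 chromosome 7, 141079625 to 141081861, minus strand) covers a splice junction, as its 60 bases span 2237 bases of the genome. It is shown as the one probe of the 19 that was well above background on all control arrays and on no silenced array, a pattern found in 0.927% of all probes.
Adam12 A_55_P1958823: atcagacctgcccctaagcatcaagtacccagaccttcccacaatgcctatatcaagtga

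The controls read 6.39, 6.61, 7.42 and 6.73, and silenced replicates 1 and 2 read 5.21 and 5.16 while the others were not positive. The control signal was at least 1.54-fold higher, with the silenced side set at the lowest signal well above background on each array. Without the mask on dim spots limma gave an adjusted p = 0.0122, with silenced signals at background, so no size is given. The probe was also called lower in the authors' table and, where it could be tested, without silenced replicate 3, without silenced replicate 4, and without control replicate 3 and silenced replicate 4 together. In fits with an array left out, 2 values were enough in the group that lost it. These calls rested on silenced replicates 1 and 2 alone. The second Adam12 probe (A_51_P510882) was positive on 4 control arrays (4.83, 4.68, 5.38 and 4.88) and no silenced array, and well above background on none. Without the mask limma gave an adjusted p = 0.0112, again from signals at background, and it was called lower in the authors' table too.

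**Figure D4:**
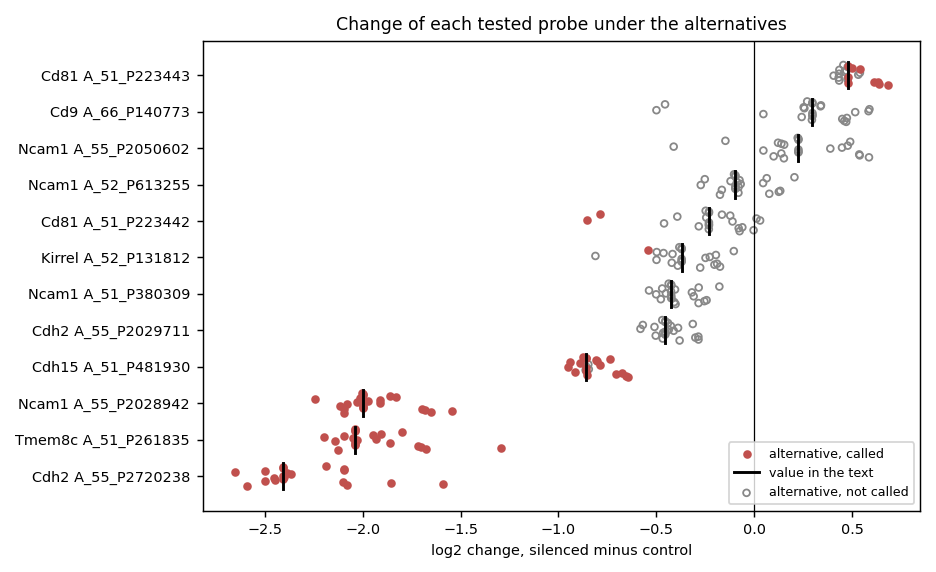
Log2 change of each tested probe, silenced minus control, in the reported fit (black bar) and under each alternative of scaling, masking, blocking, test or left-out array; filled red points are called at 0.05 and open grey points are not, and unadjusted p-values were used for the one unadjusted test. The 4 probes called lower stay below 0 throughout, while Cd9, the 5′ Cd81 probe and 2 Ncam1 probes lie on both sides of 0.

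The pattern of the brightest tested member probe over the 8 arrays, that of the 3′ Cd81 probe, was compared with 25108 probes that had a value on every array. The most similar probes of other genes were those of Cstf1 (r = 0.990), BI076678 (r = 0.978) and Irf2bpl (r = 0.977). These are Pearson correlations over 8 arrays that share groups, slide and normalisation, and they are given as a description.

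Genes of the wider fusion and adhesion machinery were taken from 6 lists and each was represented by its brightest tested probe. The lists include the 7 tested genes described above, so Tmem8c and Cdh15 are among the calls. Of 161 listed symbols, 151 were on the array and 124 could be tested, with 18 called lower and 10 called higher. Among all genes taken the same way, 14% were called lower and 6.02% higher. The median change over the lists was -0.016, or 0.076 relative to all genes. The count of higher calls depends strongly on the processing and ran from 3 to 25. The 3 came with the probes of each gene averaged, where 20 were lower and no share over all genes is given. With cyclic loess 18 were lower and 24 higher, where 14.3% of all genes were lower and 22.2% higher. Without the mask on dim spots 17 were lower and 25 higher, where 6.72% of all genes were lower and 10.9% higher.

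Among fusogens and fusion membrane proteins, 3 of 17 tested genes fell and 2 rose. Besides Tmem8c, Anxa5, a calcium-dependent phospholipid-binding protein, fell (-0.69 ± 0.19, SE, limma adjusted p = 0.031). The chemokine receptor Cxcr4 fell as well (limma adjusted p = 0.0138), but it was well above background on 3 control arrays and no silenced array, so no size is given. Ehd2, a membrane-remodelling ATPase, rose (1.29 ± 0.23, SE, limma adjusted p = 0.00485), while its other tested probe read -0.90 (adjusted p = 0.063). Adgrb3, an adhesion receptor, rose on its brightest probe (1.04 ± 0.26, SE, limma adjusted p = 0.0179), while its other tested probes read 0.36 and 0.20 and were not called. Gm7325, the array's name for myomixer, did not pass the test (0.32 ± 0.45, SE, limma adjusted p = 0.647). Its signal was clear of background on 2 silenced arrays and none of the controls, so this value lies near background.

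In the actin and Rac pathway 8 of 36 tested genes fell and 1 rose. Focal adhesion kinase, Ptk2, fell (-2.58 ± 0.26, SE, limma adjusted p = 0.000488), although its other tested probes read -0.0026 and -0.52 and were not called. Elmo2, which with Dock1 activates Rac, was well above background on all control and no silenced arrays, and was at least 2.54-fold lower (limma adjusted p = 0.00492). Wasl, the activator of Arp2/3-driven actin branching, fell on its brightest probe (-1.58 ± 0.26, SE, limma adjusted p = 0.00295). Its other tested probe read -0.71 and was not called (limma adjusted p = 0.077). The remaining 5 called lower changed by -1.02 to -0.84. Wasf2 rose (0.68 ± 0.20, SE, limma adjusted p = 0.0381), with its other tested probes between -0.64 and 0.089.

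Of 16 tested cadherin and catenin genes, Cdh15 and Boc fell and Ctnnal1 rose. Boc, a coreceptor that works with cadherins in muscle differentiation, read 8.02, 8.28, 8.47 and 8.32 in controls and 6.50, 6.80, 6.86 and 5.98 in silenced cells (-1.74 ± 0.24, SE, limma adjusted p = 0.0015). Ctnnal1, an alpha-catenin-like protein, rose on its brightest probe (1.36 ± 0.31, SE, limma adjusted p = 0.0127) and not on its 3 others. The catenins that carry classical cadherins gave values that did not pass the test, -0.41 for Ctnna1 and -0.25 for Ctnnb1.

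Of 21 tested immunoglobulin-type adhesion genes 3 fell and none rose by limma, while at an unadjusted p under 0.05, 2 were higher by limma and 1 by the methods' t-test. L1cam, a neural adhesion molecule, fell on both tested probes (-2.21, limma adjusted p = 0.000588, and -2.73, adjusted p = 0.00839). The junctional adhesion molecule F11r fell as well (-0.96 ± 0.28, SE, limma adjusted p = 0.0353). Vcam1 (0.018) and Jam3 (-0.15) were not called.

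Tetraspanins and their partners had 2 genes lower and 4 higher of 25 tested. Tspan9 fell on its brightest probe (-1.87 ± 0.43, SE, limma adjusted p = 0.0138) and not on the other (0.083), and Tspan5 fell (-0.86 ± 0.23, SE, limma adjusted p = 0.0256). Tspan11 (1.30), Cd37 (1.24), Tspan15 (1.03) and Tspan7 (0.94) rose on their brightest probes, with limma adjusted p between 0.00782 and 0.0339. The other tested probes of Tspan15 read 0.42 and -0.84 and that of Cd37 0.078, and none of them was called. Cd82 (0.33), Cd151 (0.25) and Cd63 (0.11) did not pass the test.

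Of 11 tested ADAM and TIMP genes none fell by limma and 2 rose. At an unadjusted p under 0.05 the count lower was also 0, by limma and by the methods' t-test. Adam15 rose on 2 of its 3 tested probes (brightest 1.08 ± 0.21, SE, limma adjusted p = 0.00624). Adam8 rose on its brightest probe (0.84 ± 0.27, SE, limma adjusted p = 0.0485), while its second probe fell (-2.83, adjusted p = 0.000988). Adam9, Adam10, Adam17 and Adam19 were not called.

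**Figure D5:**
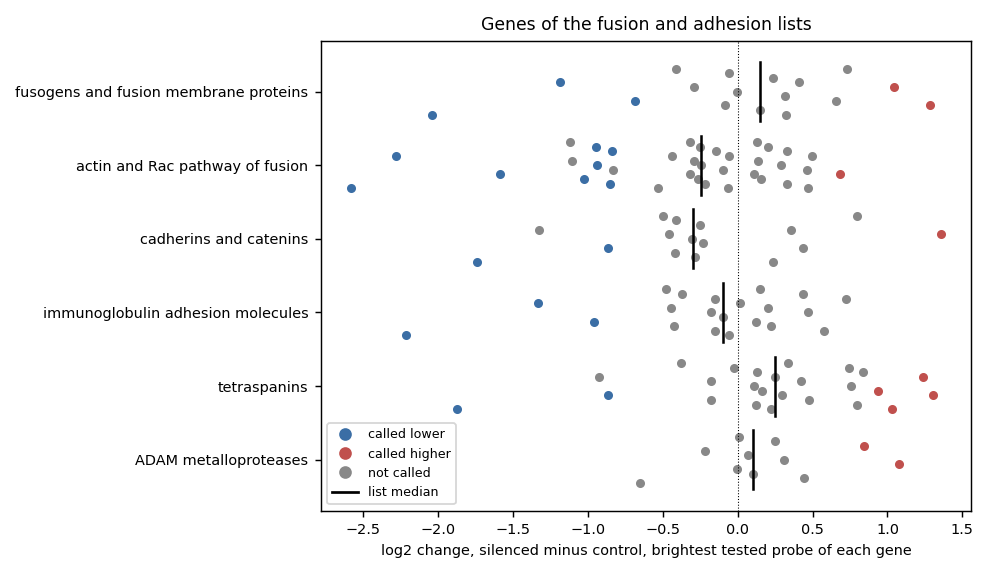
Log2 change, silenced minus control, of the brightest tested probe of each gene in 6 lists of fusion and adhesion genes, with genes called lower in blue, called higher in red and not called in grey; the vertical bar is the median of each list. Most genes lie near 0, and the list medians run from -0.29 for cadherins and catenins to 0.25 for tetraspanins.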

How the data were processed

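RNA from 8 cultures, 4 per group, was measured on single-colour arrays, all on one slide and one scan. The authors deposited scanner tables whose processed intensity was background-subtracted within each array by Feature Extraction (version 12.0.0.7 per the file headers, 10.7.3.1 per the labels). They also deposited a series table of normalised intensities for the same arrays, which was put on the log2 scale here. The scanner flags, per the file headers, are 0 or 1. Following the study's methods, intensities were put on the log2 scale, spots not positive and significant were set to missing, arrays were quantile normalised and spots of one probe averaged. Spots with an outlier flag were also set to missing, which the study's methods do not state. Probes with at least 3 of 4 values per group (28649) were fitted with limma 3.58.1 in R 4.3.3 (lmFit, eBayes, Benjamini-Hochberg over all of them). Single comparisons used exact two-sided permutation tests. The number of arrays limits the precision, and p-values measure the spread between these cultures. The fit was tested on simulated data.

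Every member probe is named. From each pathway list the called genes with the 3 largest rises and falls at most are named. Some listed genes are not reported here. Other named genes were chosen after their values were seen. The members and lists were chosen with earlier results of these data known. Symbols are those of the array design, and probe positions are on mm9 per the file headers. Figures were drawn with matplotlib. Alternatives covered scaling, background correction, masks, the series table, blocks for replicate number and slide row, the prior, the methods' t-test and leaving out each array. The alternatives chosen after seeing the data were leaving out control replicate 3 and silenced replicate 4 together, and keeping outlier spots.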

Additional observations from a re-analysis of the deposited data

Results flagged for a closer look

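Single arrays stood far from the other 3 of their group on 5 of the 25 groups of 4 values examined, where chance alone gives such a gap in a small share of groups. Of the 5, 4 were control replicate 3. It read 6.60 on the Ncam1 probe A_55_P2050602 with the other controls more than 2 units higher, up to 9.27, 10.94 on the Kirrel probe against 12.63 to 12.79, 11.79 on the Cd9 probe against 14.84 to 15.05, and 11.01 on the 5′ Cd81 probe (A_51_P223442) against 13.25 to 13.67. The other was silenced replicate 4, which read 7.94 on the same Ncam1 probe against 8.95 to 9.05. Control replicate 3 also correlated least with its group, and silenced replicate 4 had the lowest share of positive spots. Without both arrays the Kirrel probe (-0.54, adjusted p = 0.0238) and the 5′ Cd81 probe (-0.79, adjusted p = 0.0348) were called lower.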

How the results depend on the processing

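Tmem8c, the called Ncam1 probe and the called Cdh2 probe kept direction and call under every alternative that could be run for them. Outside the left-out arrays their changes ran from -2.13 to -1.29, from -2.11 to -1.54 and from -2.59 to -1.59. With signals well above background only, Tmem8c and that Cdh2 probe had too few values, and 2 of 10 tested member probes were called lower (24.4% of all probes). With the authors' table and with no mask, 6 of 19 were (9.75% and 8.46% of all probes). That Cdh2 probe also dropped out when a value on all 8 arrays was required. Leaving out arrays, the count of member probes called lower ran from 3 to 7, and of those called higher from 0 to 1, while 10.3% to 23.2% of all probes were lower and 2.36% to 17.7% higher. With outlier spots kept the same 4 were lower. The 1 called higher, the 3′ Cd81 probe, was also called with 75th percentile scaling, cyclic loess, normexp, the authors' table, no mask, the robust trended prior and the unadjusted methods' t-test (1 each), where 7.56%, 18.9%, 5.5%, 9.86%, 8.82%, 6.47% and 7.79% of all probes were higher.

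Of the listed genes, 10 were lower with the slide row block (5.97% of all genes) and 11 with the methods' t-test after Benjamini-Hochberg (7.75%), and 11 to 26 when arrays were left out (7.33% to 17.7%, 11 without control replicate 2, and 11 without control replicate 4). Higher were 24 with cyclic loess, 25 with the authors' table (12.8% of all genes) and 25 with no mask. The slide row block gave 5 (2.42%), and the methods' t-test 4 and 17 after and before adjustment (2.59% and 9.98%). With the probes of each gene averaged 3 were higher and 20 lower, and no share over all genes is given for this setting. Leaving out arrays gave 5 to 25 higher, beside 2.97% to 21% of all genes. The count was 19 without silenced replicate 4 and 25 without control replicate 3 and silenced replicate 4 together.

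The small change of the Ncam1 probe A_52_P613255 turned to 0.077 with cyclic loess, 0.13 with the authors' table and 0.13 with no mask, and ran from -0.27 to 0.21 when arrays were left out. On the same basis the Ncam1 probe A_55_P2050602 ran from -0.41 to 0.49, Cd9 from -0.50 to 0.59 and the 5′ Cd81 probe from -0.86 to 0.030. The causes were not tested.

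Replicate numbers did not pair the samples, since deviations of same-numbered arrays correlated at -0.043, 0.19, 0.22 and 0.057, and not every array correlated best with its own number. With the replicate block 3 member probes were lower (13.9% of all probes), Cdh15 being lost at an adjusted p of 0.054. Pvt1 was not analysed in the authors' table. The median change of all probes was 0.025 with cyclic loess and 0.0067 without the mask, against -0.19.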

Other observations

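Beyond the adhesion genes, 4 of 13 tested myoblast identity genes and 3 of 17 tested muscle differentiation genes were called lower by limma, beside 14% of all genes. Besides Cdh15 and Myod1, the identity genes that fell were Des, the muscle intermediate filament protein (-1.35 ± 0.23, SE, limma adjusted p = 0.00374), and Msc, a basic helix-loop-helix factor (-1.05 ± 0.27, SE, limma adjusted p = 0.0196). Besides Tmem8c, the differentiation genes that fell were the sarcomeric actins Actc1 (-2.50 ± 0.22, SE, limma adjusted p = 0.000326) and Acta1 (-1.88 ± 0.25, SE, limma adjusted p = 0.00128). Cdh15 and Tmem8c belong to these lists as well, and the lists were chosen with earlier results known.

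Among lists of other cell types, the leukocyte list had 4 of 5 genes well above background on all arrays of both groups. Cd68, a lysosomal protein of macrophages and other cells, rose on its brightest probe (1.84 ± 0.22, SE, limma adjusted p = 0.000799). Its other tested probes read 1.01 (limma adjusted p = 0.0144) and 0.45 (not called). The integrin gene Itgam fell on its brightest probe (-1.08 ± 0.22, SE, limma adjusted p = 0.00785), while its other tested probe read -0.22 and was not called. The neural list had 4 of 10 genes well above background on all arrays, and Gfap and Slc17a7 were on none. Snap25, a vesicle fusion protein of neurons, fell (-0.94 ± 0.25, SE, limma adjusted p = 0.0246).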
